A study of Mus musculus with 6 samples.

Results

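CD28, ICOS, OX40, 4-1BB, GITR, TNFR2 and CD27 are costimulatory receptors. They add to the signal of the T cell receptor when a CD8+ T cell meets its antigen. CD28, bound by CD80 and CD86, and ICOS, bound by ICOS ligand, belong to the immunoglobulin superfamily and recruit phosphoinositide 3-kinase. The other receptors belong to the TNF receptor family and act through TRAF adaptors on NF-kB. CD28 and CD27 are carried by resting T cells, whereas ICOS, OX40, 4-1BB and GITR are mainly raised after activation.

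The chromatin of the 7 mouse genes for these receptors, Cd28, Icos, Tnfrsf4 (OX40), Tnfrsf9 (4-1BB), Tnfrsf18 (GITR), Tnfrsf1b (TNFR2) and Cd27, was examined by ATAC-seq, in which the Tn5 transposase cuts accessible DNA and more reads in a region mean more open chromatin. A region belonged to a gene if it overlapped the span of that gene, or if its nearest protein-coding gene end was an end of that gene and lay within 50 kb. This gave 30 of the 24605 regions of the deposited count matrix, 6 each at Icos, Tnfrsf9 and Tnfrsf1b, 5 at Cd28, 3 at Cd27 and 2 each at Tnfrsf4 and Tnfrsf18. No region belonged to more than 1 gene. Nearness does not make a gene the target of a region.

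The cells were wild-type (WT) mouse CD8+ T cells taken from pancreas, spleen and lymph nodes, kept in T cell medium for 48 hours with palmitate at 100 µM (3 libraries) or as control (3 libraries). Palmitate is a saturated fatty acid, and the series asks how it affects CD8+ T cell function. The treatment note of the control samples carries the same palmitate text as that of the treated samples, and groups were therefore taken from the titles and the treatment field. The labels do not say what the control medium held in place of palmitate, nor whether each replicate had its own animal or culture, and p-values therefore rest on a spread between libraries that may be technical. In bulk samples, fewer cells with an open region and less opening per cell cannot be told apart.

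RefSeq promoter windows on GRCm38.p6 (250 bases before to 50 after a transcription start) were found for 5 of the 7 genes. They are shown for the 3 windows that touched an open region, together with the upstream Tnfrsf9 window, which touched none although a second Tnfrsf9 window overlapped a region inside the gene. The windows are Tnfrsf1b (chr4:145246821-145247120, minus strand), the upstream Tnfrsf9 start (chr4:150919905-150920204, plus strand), the internal Tnfrsf9 start (chr4:150927749-150928048, plus strand) and Cd27 (chr6:125236978-125237277, minus strand). Capitals mark matches to the motifs searched on both strands, and the Tnfrsf1b and Cd27 windows overlap the gene-end regions described further on.

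Tnfrsf1b: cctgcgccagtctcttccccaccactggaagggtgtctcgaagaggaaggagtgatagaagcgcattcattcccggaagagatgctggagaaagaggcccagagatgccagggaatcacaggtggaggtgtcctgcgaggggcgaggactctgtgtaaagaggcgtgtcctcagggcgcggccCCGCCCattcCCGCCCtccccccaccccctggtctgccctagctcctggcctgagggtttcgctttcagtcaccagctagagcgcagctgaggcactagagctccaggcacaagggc
Tnfrsf9 upstream: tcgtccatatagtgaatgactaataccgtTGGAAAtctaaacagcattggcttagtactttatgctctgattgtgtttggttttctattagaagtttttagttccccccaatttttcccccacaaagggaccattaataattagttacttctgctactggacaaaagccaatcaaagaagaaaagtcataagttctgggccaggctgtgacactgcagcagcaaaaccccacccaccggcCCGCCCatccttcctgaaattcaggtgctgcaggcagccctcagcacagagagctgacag
Tnfrsf9 internal: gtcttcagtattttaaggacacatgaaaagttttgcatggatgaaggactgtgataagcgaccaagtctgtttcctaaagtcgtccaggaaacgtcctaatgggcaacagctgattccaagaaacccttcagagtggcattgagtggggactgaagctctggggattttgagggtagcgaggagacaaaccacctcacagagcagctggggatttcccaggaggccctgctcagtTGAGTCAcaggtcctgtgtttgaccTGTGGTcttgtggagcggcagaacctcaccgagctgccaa
Cd27: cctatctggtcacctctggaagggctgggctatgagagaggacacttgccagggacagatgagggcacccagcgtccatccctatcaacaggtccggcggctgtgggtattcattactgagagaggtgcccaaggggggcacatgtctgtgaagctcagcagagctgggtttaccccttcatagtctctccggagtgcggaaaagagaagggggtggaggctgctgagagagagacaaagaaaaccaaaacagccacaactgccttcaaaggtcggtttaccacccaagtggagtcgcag

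The Tnfrsf1b window held 2 matches to the Sp1 motif GGGCGG. The upstream Tnfrsf9 window held 1 Sp1 match and 1 match to the NFAT motif TGGAAA. The internal one held 1 match to the AP-1 motif TGANTCA and 1 to the RUNX motif TGTGGT. The Cd27 window held none, and no window shown held either NF-kB motif searched or the CRE motif TGACGTCA. None of the matches overlapped another. Of 32851 promoter windows in the table, 35.7% held the Sp1 motif, 21.4% the NFAT, 16.8% the RUNX, 7.81% the AP-1 and 1.79% the CRE motif, while the NF-kB motifs were in 0.155% and 0.0883%. The NF-kB motifs were 2 exact sequences that few promoter windows held. Variants of them were not searched, so a window without a match can still hold an NF-kB-like sequence. A match describes letters and not a bound site. The Tnfrsf1b window had a GC content of 62.7% with 13 CpG pairs, the internal Tnfrsf9 window 51.0% with 6, the Cd27 window 56.0% with 7 and the upstream Tnfrsf9 window 45.3% with 4. Windows that touched an open region, 32.1% of all, had a median GC content of 62.3% and a median of 23 CpG pairs, against 49.0% and 4 in the others. The windows of Tnfrsf4 and Tnfrsf18, with 6 and 4 CpG pairs, touched no region.

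Counts in regions totalled 2614890 to 3089230 in palmitate libraries and 2219136 to 2855574 in control libraries. Control 2 stood apart, since a chi-square test of its counts against controls 1 and 3, divided by its degrees of freedom, gave 2.05 and 2.03, where the other pairs within a group gave 1.19 to 1.48. Results that turn on it are named. Regions lay in the spans of all 5 CD8+ T cell markers checked (Cd8a, Cd8b1, Cd3d, Cd3e, Cd3g), with summed levels of 269 to 313 CPM (the usual CPM scaling of counts to library size, over reads in regions, with TMM factors that correct for composition) in palmitate and 268 to 290 CPM in control. None lay in Foxp3, Cd79a, Ms4a1, Lyz2, Cd68, in the 2 NK cell markers or in the 6 pancreas markers. The B cell factor Pax5 had 4 regions (52.8 to 98.9 CPM in palmitate, 57.2 to 74.5 CPM in control). Zbtb7b, a factor of CD4+ T cells, had 3 (76.9 to 111 CPM in palmitate, 63.9 to 87.1 CPM in control). Cd4, Itgam and Spi1 had 1 each, at no more than 13.3 CPM in any library. Over these lists 1 B cell region was lower in palmitate and 1 CD4+ T cell region was higher. Their part in the results was not tested.

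Few regions of the receptor loci passed the test, and those that did lay beyond Icos and near Tnfrsf4. Of the 30 regions, 4 were lower in palmitate than in control at a false discovery rate of 0.05 and 0 were higher, while 26 did not pass (edgeR quasi-likelihood F-test over all 24316 tested regions, two-sided, Benjamini-Hochberg adjustment). The same test called 12.7% of all tested regions lower and 11.9% higher, 24.6% in all, so the share of lower members, 13.3%, lay near the background. Of the 4 lower regions, 3 followed one another beyond Icos. Leaving out control 3 or palmitate 3 left 2 lower members. Of the 14 regions that overlapped a receptor gene 0 passed. Of the 16 outside 4 did, including the region near Tnfrsf4, which lies inside another gene. Of all tested regions 2.47% at gene ends, 19.6% inside genes and 18.4% between genes were lower. The difference between the 14 and the 16 was not tested. At an unadjusted edgeR p below 0.05 there were the same 4 regions, 0 of them higher, where 36.6% of all tested regions reached it. The DESeq2 Wald test called 2 members lower and 0 higher, against 4.99% and 7.85% of all regions, while limma-voom called 3 lower and 0 higher, against 11.8% and 11.5%. In 4 members every palmitate library lay below every control (21% of all tested regions), and in 0 above (17.9%).

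The median log2 fold change was -0.09 over the members and -0.05 over all tested regions. With total counts as library sizes the median of all regions moved by -0.12, and 25 of the 30 regions had a negative log2 fold change, against 19 with TMM. Of all 24316 tested regions 13201 had a negative one with TMM. The same number with total counts was not taken. By position, 0 of 3 regions at a gene end (no more than 1 kb from it) were higher and 0 lower, where 25% of all gene-end regions were higher and 2.47% lower. Inside genes 1 of 13 was lower and 0 higher, against 19.6% and 4.3% of all such regions. Of intergenic regions 3 of 14 were lower and 0 higher, against 18.4% and 2.67%. With so few members these shares are a description.

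**Figure D1:**
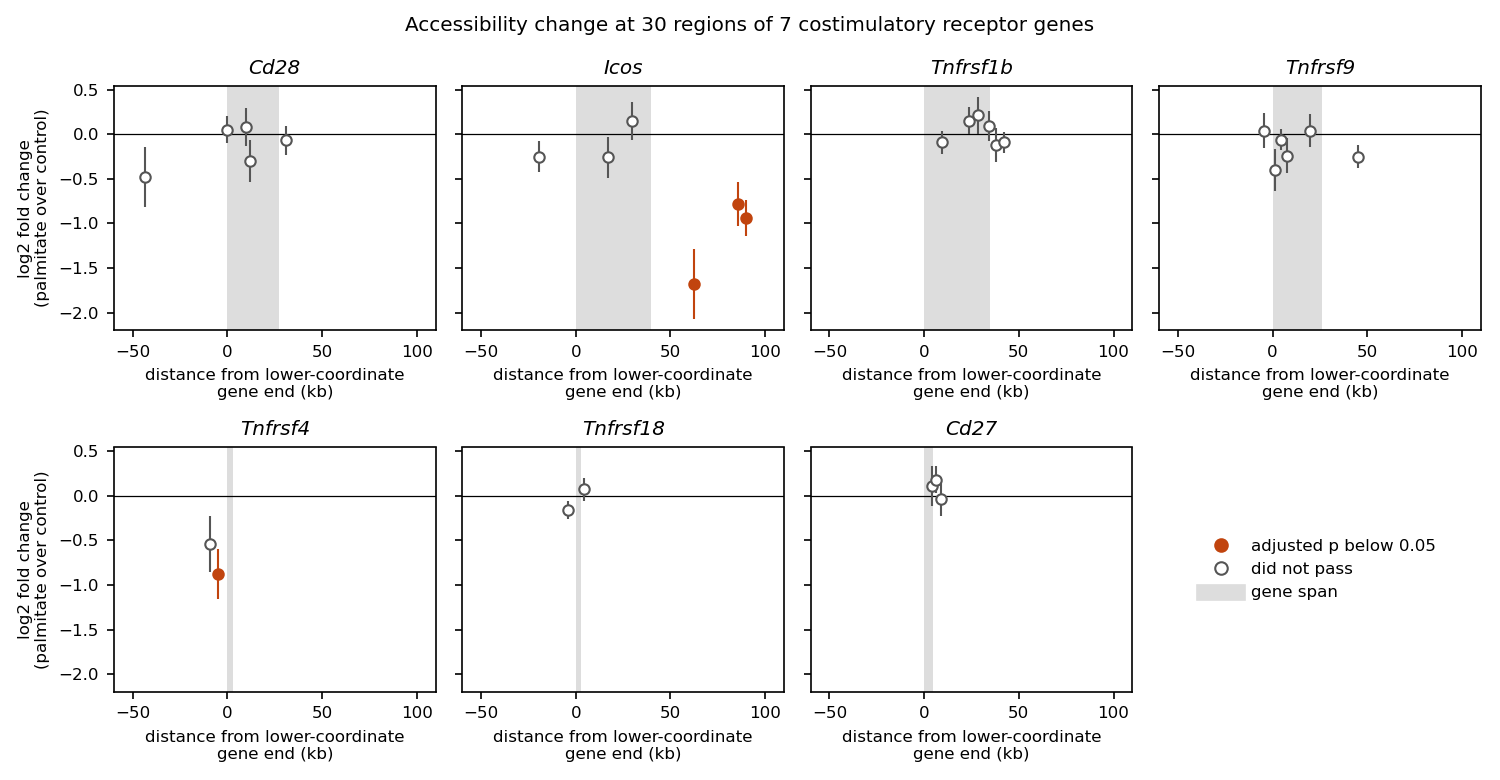
Log2 fold change (palmitate over control) with its standard error at the 30 regions, by distance in kb from the lower-coordinate end of each gene, whose span is shaded. The 3 regions beyond Icos lie at -1.68, -0.78 and -0.94, and the lower region near Tnfrsf4 lies at -0.88.

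Cd28 had 5 regions, of which 0 passed (edgeR; 0 at an unadjusted p below 0.05, and 0 with DESeq2 or limma-voom). The region at its lower-coordinate end (chr1:60746101-60746597), where Cd28 is known to be transcribed from, held 102, 103 and 106 raw counts in palmitate libraries 1 to 3, against 62, 139 and 109 in controls 1 to 3. The palmitate libraries lay within the range of the controls, at 38.6 ± 3.14 CPM in palmitate and 36.8 ± 9.62 CPM in control (SD, n = 3 each). The log2 fold change was 0.05 ± 0.153 (SE), with a 95% interval of -0.27 to 0.36 and an adjusted p of 0.86 in edgeR. The 2 regions inside Cd28 and the 1 at 3.64 kb beyond its higher-coordinate end had log2 fold changes from -0.30 to 0.08. The weakest, 43.4 kb from the gene, had 12, 16 and 15 counts in palmitate against 9, 33 and 20 in control, at -0.48 ± 0.341 (SE; edgeR adjusted p 0.32).

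Icos had 6 regions, before, within and beyond the gene, and the 3 beyond it were lower. The farthest, 49.9 kb beyond the higher-coordinate end (chr1:61050271-61050702), held 37, 31 and 35 raw counts in palmitate libraries and 55, 76 and 71 in controls. Every palmitate library lay below every control, at 12.8 ± 2.09 CPM in palmitate and 24.5 ± 0.718 CPM in control (SD, n = 3 each). The log2 fold change was -0.94 ± 0.20 (SE), with a 95% interval of -1.34 to -0.53 and an edgeR adjusted p of 0.000894. This was the member with the smallest p, and it passed under all 17 alternatives tried for it, with adjusted p from 0.00041 to 0.0146. The 17 include a threshold of 0.1 on the same p, which it was bound to pass.

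The region 22.6 kb beyond Icos (chr1:61022937-61023216) held 8, 9 and 7 raw counts in palmitate libraries and 35, 13 and 30 in controls. Control 2 was thus nearest to the palmitate libraries, although the groups did not overlap, at 2.97 ± 0.248 CPM in palmitate and 9.93 ± 5.47 CPM in control (SD, n = 3 each). The log2 fold change of -1.68 ± 0.392 (SE) had a 95% interval of -2.48 to -0.89 and an edgeR adjusted p of 0.00202. It was a weak region, at percentile 10.9 of mean CPM among tested regions, and with trended offsets, which level each library's counts along the scale of region strength, it became -1.08 and did not pass (adjusted p 0.0981).

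The region 45.6 kb beyond Icos (chr1:61045966-61046505) held 25, 22 and 22 raw counts in palmitate libraries and 29, 51 and 42 in controls. The groups did not overlap in CPM, at 8.59 ± 1.20 in palmitate and 14.6 ± 2.19 in control (SD, n = 3 each). The SE of its log2 fold change of -0.78 was 0.247, and the edgeR adjusted p was 0.0195. The call was lost in 6 of 16 alternatives, with trended offsets (-0.51, adjusted p 0.214), in the DESeq2 Wald test (0.117) and in the edgeR fits that left out control 2 (adjusted p 0.0615), control 3 (0.0506), palmitate 2 (0.0888) or palmitate 3 (0.0662). The 16 include a threshold of 0.1 on the same p, which could not lose the call. No sequence of these 3 regions was used here.

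Summed over these 3 regions, which span 27.8 kb, accessibility was 27.6, 21.1 and 24.5 CPM in palmitate libraries and 51.9, 46.6 and 48.6 CPM in controls. The other 3 Icos regions, 1 at 18.8 kb before the lower-coordinate end and 2 inside the gene, summed to 74.9, 57.4 and 59.1 CPM in palmitate and 54.5, 82.5 and 65.3 CPM in control. The first sums do not overlap between groups and the second do, with log2 ratios of -1.01 and -0.08; the 3 regions were picked by their calls, so this sets out the values and tests nothing. The strongest Icos region, inside the gene (chr1:60990249-60990828), held 82, 73 and 60 raw counts in palmitate and 39, 108 and 53 in control, at 0.15 ± 0.21 on the log2 scale (SE; adjusted p 0.651 in edgeR). Control 2 was its highest library, and without it the region was higher in palmitate (0.60, edgeR adjusted p 0.0198). Ctla4, the inhibitory receptor gene between Cd28 and Icos, had 6 regions of its own, 3 of them lower, against 12.7% of all tested regions. Log2 fold changes of the 6 ran from -1.69 to 0.10, and 0 passed with trended offsets.

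Values just inside and just outside the 50 kb limit are given as a description. The outermost member was the region at 49.9 kb from Icos described above. Beyond the limit, with the nearest gene end still a member's, lay 3 further regions, at 60373 and 68706 bp from Cd28 and 135232 bp from Icos. They held 5 to 10, 12 to 16 and 17 to 24 raw counts in palmitate libraries, against 13 to 20, 26 to 31 and 24 to 64 in controls. In all 3 every palmitate library lay below every control in CPM, as in 21% of all tested regions. All 3 were lower in edgeR (adjusted p 0.0227, 0.0139 and 0.0293) and none passed with trended offsets (0.578, 0.26 and 0.259). In the authors' peak lists, called per library, those near Cd28 each had a peak in 3 control and 0 palmitate lists. Both thus overlapped listed peaks through control libraries only, so their lower calls and empty palmitate lists are not separate results.

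**Figure D2:**
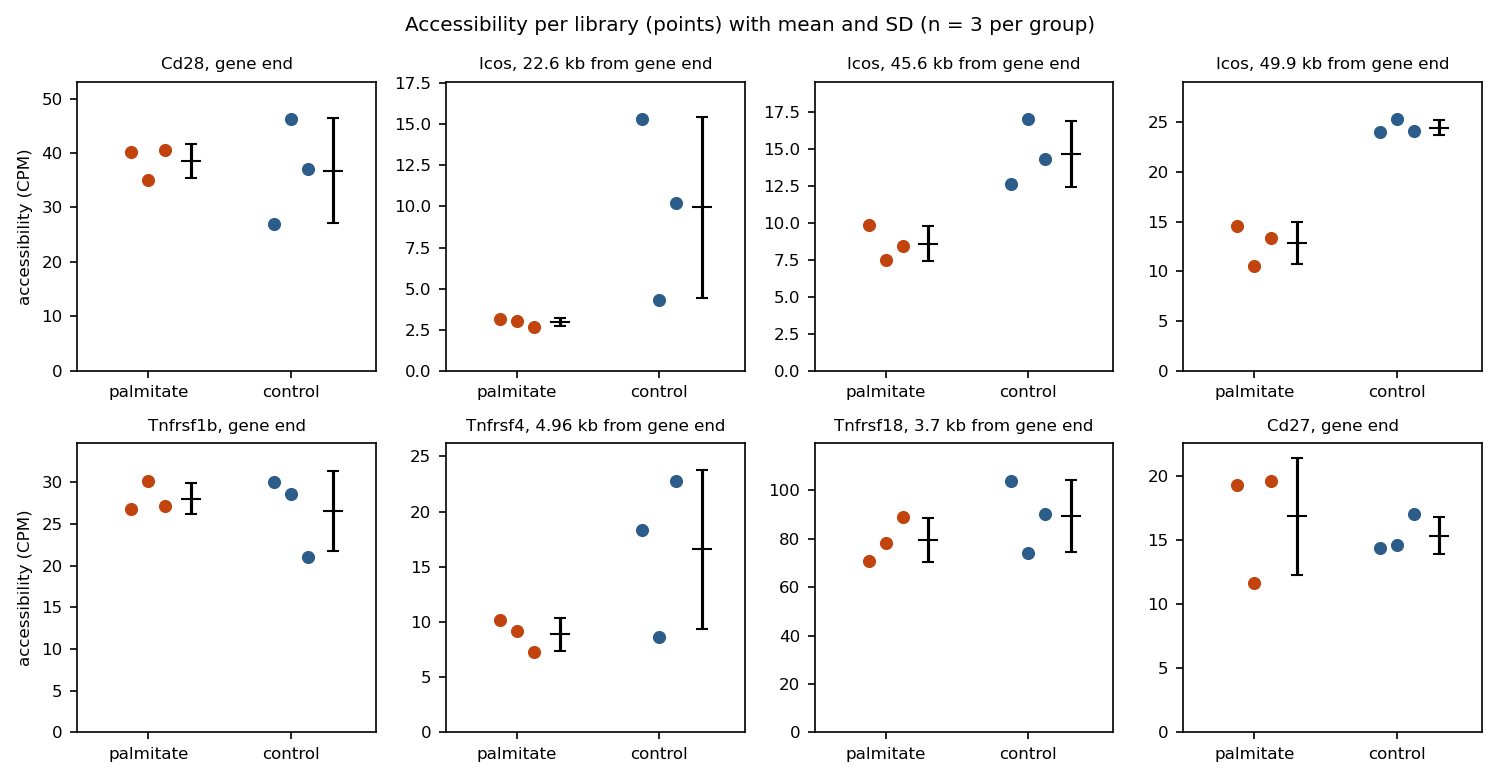
Accessibility in CPM of single libraries (points) with mean and SD (n = 3 per group) at the 4 lower regions, the 3 gene-end regions and the strongest Tnfrsf18 region, palmitate left of control. At the region 49.9 kb from Icos all palmitate libraries lie below all controls (12.8 against 24.5 CPM on average), while control 2 falls among the palmitate libraries near Tnfrsf4.

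Among the TNF receptor genes, 1 of 19 regions was lower (5.26%) and 0 were higher, against 12.7% and 11.9% of all tested regions. Tnfrsf4, for OX40, had 2 regions, both inside the neighbouring gene Sdf4, which encodes a calcium-binding protein of the Golgi. That at 4.96 kb (chr4:156008185-156008636) lay 4959 bp from the end of Tnfrsf4 and 4974 bp from that of Sdf4, so the 2 genes are about equally near. It held 26, 27 and 19 raw counts in palmitate libraries and 42, 26 and 67 in controls. Control 2 fell among the palmitate libraries, and the means were 8.90 ± 1.50 CPM in palmitate and 16.6 ± 7.22 CPM in control (SD, n = 3 each). The log2 fold change was -0.88 ± 0.281 (SE; 95% interval -1.46 to -0.31, edgeR adjusted p 0.02).

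This Tnfrsf4 call was lost in 6 of 16 alternatives. These were trended offsets (-0.63, adjusted p 0.192), the DESeq2 Wald test (0.0945), limma-voom (0.0663) and the edgeR fits without control 1, control 3 or palmitate 3 (0.056, 0.25 and 0.109). The 16 include a threshold of 0.1 on the same p, which could not lose the call. With single libraries left out, the log2 fold change ran from -1.21 without control 2 to -0.53 without control 3. The other region, at 9.22 kb, held 11, 18 and 19 counts in palmitate and 13, 32 and 27 in control (-0.54 ± 0.312 SE, edgeR adjusted p 0.21), so the groups overlapped.

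Tnfrsf18, for GITR, had 2 regions, 1 on each side of the gene, and they were among the strongest members. That between Tnfrsf4 and Tnfrsf18 (chr4:156021550-156022625) lay 3.70 kb from Tnfrsf18 and held 180, 230 and 232 raw counts in palmitate libraries and 238, 223 and 265 in controls. In CPM the groups overlapped, at 79.4 ± 9.07 in palmitate and 89.3 ± 14.8 in control (SD, n = 3 each). The log2 fold change was -0.16 ± 0.105 (SE; 95% interval -0.37 to 0.06), with an edgeR adjusted p of 0.287. The region passed as lower with trended offsets (-0.33, adjusted p 0.0478) and without control 2 (-0.28, 0.0379), 2 of the 17 alternatives tried for it. Without control 1 its log2 fold change was -0.05 (edgeR adjusted p 0.8), and without palmitate 1 it was -0.08 (0.656). The region 1.75 kb beyond the gene was at 63.4 ± 11.2 CPM in palmitate and 60.0 ± 11.5 CPM in control (SD, n = 3 each).

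Tnfrsf9, for 4-1BB, had 6 regions and 0 passed (edgeR; 0 at an unadjusted p below 0.05). The strongest, inside the gene (chr4:150924204-150925236), held 126, 147 and 143 raw counts in palmitate and 117, 164 and 162 in control, at -0.06 ± 0.113 (SE; 95% interval -0.29 to 0.17). The region at the internal promoter window shown above (chr4:150927842-150928129) held 53, 45 and 49 counts in palmitate and 40, 70 and 68 in control, at -0.24 ± 0.195 (SE). Both overlapped between groups. Of the members that did not pass, the region with the smallest p lay 18.6 kb beyond Tnfrsf9 (chr4:150964708-150965428), with 91, 110 and 97 counts in palmitate and 109, 124 and 126 in control. Every palmitate library lay below every control there in CPM (36.8 ± 0.822 in palmitate and 43.9 ± 3.24 in control, SD, n = 3 each). There the log2 fold change was -0.25 ± 0.129 (SE; adjusted p 0.168 in edgeR). It passed with total counts as library sizes (-0.36, adjusted p 0.0419).

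Tnfrsf1b, for TNFR2, had 6 regions with log2 fold changes from -0.12 to 0.21, and 0 passed (edgeR; 0 at an unadjusted p below 0.05). The region at its start (chr4:145246623-145247091), which covers most of the promoter window shown, held 68, 89 and 71 raw counts in palmitate and 69, 86 and 62 in control. Its means were 28.1 ± 1.87 CPM in palmitate and 26.6 ± 4.82 CPM in control (SD, n = 3 each), at 0.09 ± 0.166 (SE; 95% interval -0.25 to 0.43). The strongest Tnfrsf1b region, 7.55 kb outside the gene, held 116, 171 and 146 raw counts in palmitate and 126, 181 and 163 in control, at 53.3 ± 6.62 CPM in palmitate and 56.8 ± 2.93 CPM in control (SD, n = 3 each). The groups overlapped in both.

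Cd27, whose product binds CD70, had 3 regions within 4.48 kb of its start, and 0 passed (edgeR; 0 at an unadjusted p below 0.05). The region over the start (chr6:125236830-125237144) held 49, 34 and 51 raw counts in palmitate and 33, 44 and 50 in control, at 0.11 ± 0.223 (SE; 95% interval -0.34 to 0.57). The stronger region 1.33 kb away held 93, 87 and 105 counts in palmitate and 75, 89 and 93 in control, at 0.18 ± 0.149 (SE; edgeR adjusted p 0.406). The groups overlapped in both. A region within 1 kb of the other end of Cd27 lies at the end of Tapbpl and was counted with that gene (66.8 ± 5.58 CPM in palmitate, 58.5 ± 5.72 CPM in control, SD, n = 3 each).

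Over the 26 regions that did not pass, log2 fold changes ran from -0.54 to 0.21. In 24 of them the 95% interval stayed within 1 log2 unit of 0, and in 13 within 0.5.

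Summed over all regions of a gene, accessibility was 102, 78.5 and 83.6 CPM in palmitate libraries and 106, 129 and 114 CPM in controls at Icos. At Tnfrsf4 it was 14.6, 15.3 and 14.6 CPM in palmitate and 24.0, 19.3 and 32.0 CPM in control. These were the 2 loci at which every palmitate library lay below every control, with log2 ratios of means of -0.40 and -0.76. Of all single tested regions 21% showed this, and no such share was taken for sums. At the other 5 loci the groups overlapped, with log2 ratios of -0.12 at Tnfrsf9, -0.07 at Tnfrsf18, -0.04 at Cd28, 0.01 at Tnfrsf1b and 0.11 at Cd27. No test was made on these sums.

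**Figure D3:**
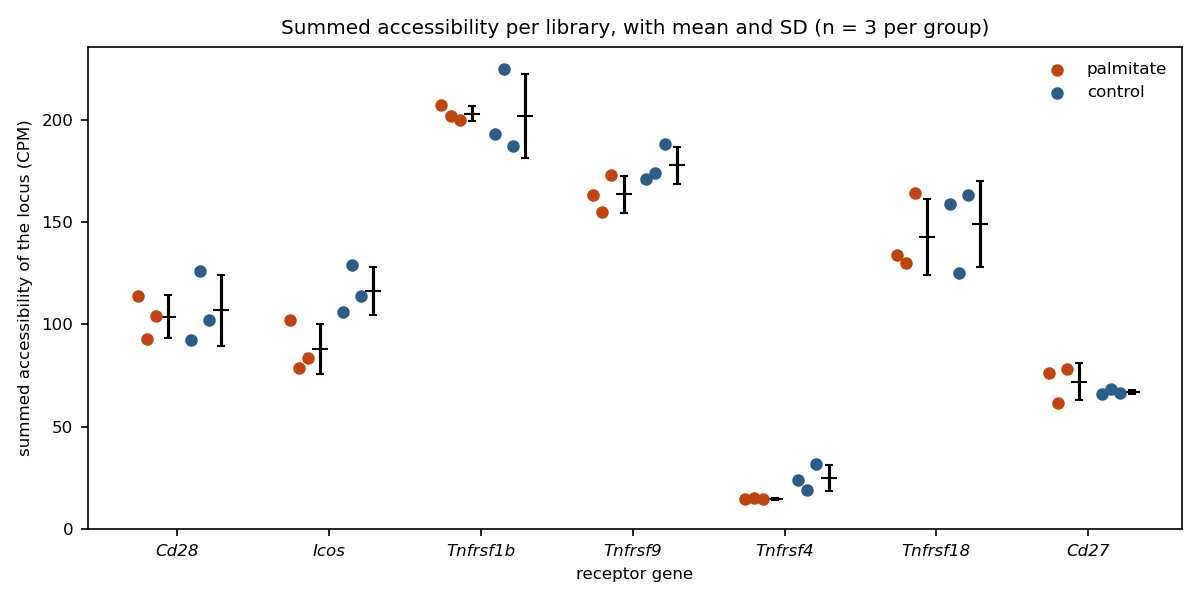
Summed accessibility of each receptor locus in CPM per library (points), with mean and SD (n = 3 per group), palmitate left of control. Palmitate libraries lie below all controls at Icos (88.2 against 116 CPM on average) and Tnfrsf4 (14.8 against 25.1 CPM) and overlap with controls at the other genes. Such a gap was seen in 21% of all single tested regions.

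Per kb of region, the level over the 6 libraries was highest at Tnfrsf18, with 95.2 CPM per kb and a range over libraries of 81.8 to 107. Cd27 (73.7, range 65.6 to 83.0) and Tnfrsf1b (72.2, range 66.9 to 80.4) followed, then Cd28 (56.4, range 49.5 to 67.8) and Tnfrsf9 (54.3, range 49.2 to 60.0). The lowest levels were at Icos (33.1, range 25.4 to 41.8) and Tnfrsf4 (31.1, range 22.7 to 49.8). Neighbours in this order overlapped in their ranges, except that every library was higher at Tnfrsf9 than any was at Icos. The order within single libraries was not set out, and an overlap of ranges does not mean that it turned in any library. The order turned between groups for 2 pairs. Cd27 had 76.4 CPM per kb and Tnfrsf1b 72.4 in palmitate, against 71.0 and 72.0 in control. Icos had 28.6 CPM per kb and Tnfrsf4 23.1 in palmitate, against 37.7 and 39.1 in control.

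The authors' peak lists were called on each library alone. Every matrix region overlapped a peak in 2 or more of these lists, so lists and matrix are not independent of each other. Of the 30 regions, 15 had a listed peak in all 6 lists (50.0%, against 60.7% of all tested regions). The region 22.6 kb beyond Icos had none in the palmitate lists and 1 in 2 of 3 control lists, that at 45.6 kb had 1 in 1 palmitate and 2 control lists, and that at 49.9 kb had 1 in all 6. The region at 22.6 kb thus overlapped listed peaks through control libraries only, so its lower call and its empty palmitate lists are not separate results. Peaks assigned to the 7 genes numbered 28, 26 and 27 in palmitate lists and 20, 37 and 34 in control lists, and the groups overlapped. Within 1 kb of the start of Tnfrsf9 and of either end of Tnfrsf18 there was no listed peak in any library. Near the lower-coordinate end of Icos 1 control list held a peak, and near that of Tnfrsf4 1 palmitate and 1 control list did. The lists held 20201 to 21502 peaks in palmitate and 22359 to 27122 in control, so presence in a list also reflects how many peaks were called.

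Fold changes over all tested regions followed region strength, and the members were read against that. The median log2 fold change was -0.59 in decile 1 of mean CPM, the weakest, and 0.27 in decile 10. The 4 lower members lay in deciles 2, 4 and 5, in which 22.6%, 17.2% and 15.5% of all regions were lower. No member lay in decile 10, where 70.4% of regions were higher. With trended offsets, 2 members were lower, the region 49.9 kb beyond Icos and the one between Tnfrsf4 and Tnfrsf18, and 0 higher, while 3.98% of all tested regions were lower and 2.09% higher. Of all calls 48.5% were higher with TMM, 34.4% with trended offsets, 22.8% with total counts and 61.1% in the DESeq2 Wald test.

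**Figure D4:**
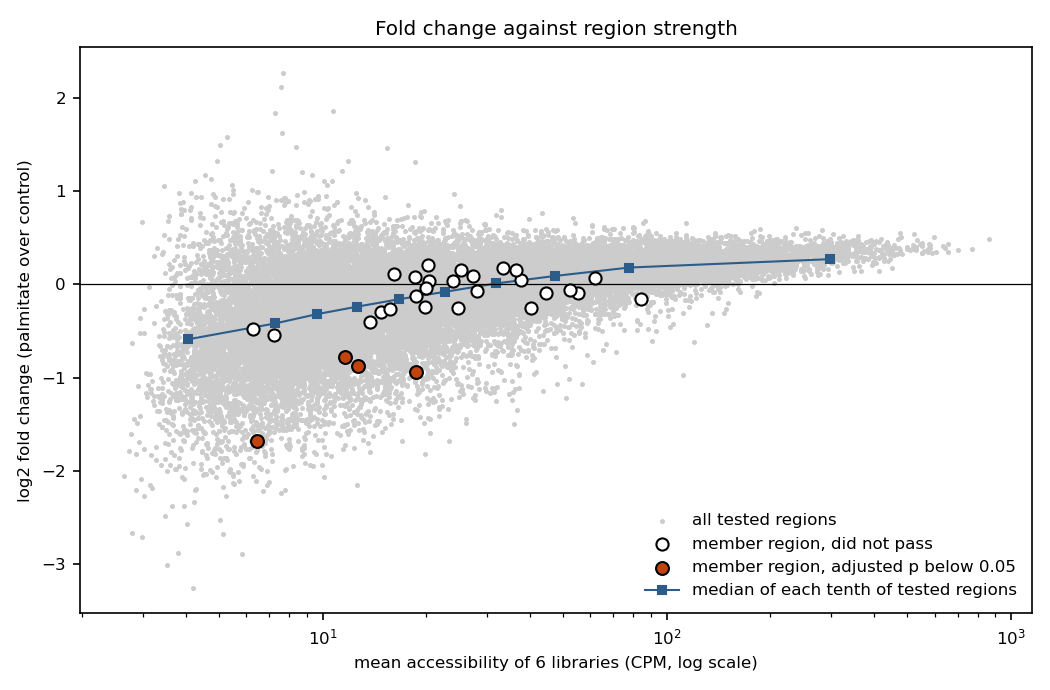
Log2 fold change (palmitate over control) against mean accessibility (CPM, log scale) for all 24316 tested regions (grey), with the members on top and the median of each decile as a line. The 4 lower members lie below the line for their strength, at 6.45 to 18.7 CPM. They were picked by their lower calls, so their place below the line is not a separate result. The other members lie between -0.54 and 0.21.

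The regions of other genes with the pattern most like that of the region 49.9 kb beyond Icos, by Euclidean distance of centred log2 CPM over the 6 libraries, lay inside Tmem231 (distance 0.0924), Hpcal1 (0.175) and Tbcel (0.186). Their log2 fold changes were -0.89 ± 0.326, -0.82 ± 0.137 and -0.81 ± 0.235 (SE). They were picked from all tested regions for this likeness.

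Genes of the pathways around these receptors, including the inhibitory receptor gene Ctla4, were counted by the same rule, over 45 genes and 195 regions. Of these regions 28 were lower (14.4%), 10 were higher (5.13%) and 157 did not pass, with a median log2 fold change of -0.14. Over all tested regions 12.7% were lower and 11.9% higher, so the share of lower regions lay near the background. Of the lower regions 15 lay inside genes, 11 between genes and 2 at gene ends, while 9 of the 10 higher ones lay at gene ends. Over all tested regions 232 of 3078 lower and 2354 of 2894 higher ones lay at gene ends. In the CD28 and ICOS axis 13 of 96 regions were lower (13.5%) and 6 higher (6.25%), and in the TNF receptor axis 11 of 54 (20.4%) and 4 (7.41%). A further list held Cd2, Slamf1, Slamf6, Tnfrsf8, Tnfrsf14, Tnfrsf25, Cd40lg, Cd5 and Cd6. Of its 45 regions 4 were lower (8.89%) and 0 higher (3 and 1 with trended offsets). These shares were not compared by a test. With trended offsets the whole list had 12 lower and 2 higher, where 3.98% and 2.09% of all tested regions were.

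Among ligands, an element inside Cd86, a ligand of CD28, was at 16.8 ± 2.30 CPM in palmitate and 38.6 ± 10.5 CPM in control (SD, n = 3 each), at -1.18 ± 0.19 on the log2 scale (SE; adjusted p 4.02e-05 in edgeR). Nfkb1, which encodes an NF-kB subunit, had 12 regions, 6 lower and 1 higher, where 12.7% and 11.9% of all tested regions were. The 4 of its lower regions with the smallest p had log2 fold changes from -0.50 to -1.52, while the region at its gene end was higher, at 70.5 ± 2.34 CPM in palmitate and 51.5 ± 2.86 CPM in control (SD, n = 3 each; 0.45 ± 0.104 SE). Near Tnfrsf8, the gene for CD30, 2 intergenic regions were lower by log2 fold changes of -1.23 and -1.68. All of these named lower regions also passed with trended offsets. The Tnfrsf8 region at -1.68 had a listed peak in 0 palmitate and 2 control lists. Both Nfkb1 regions at -1.52 had one in 0 palmitate and 3 control lists. These regions overlapped listed peaks through control libraries only, so their lower calls and empty palmitate lists are not separate results.

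The higher regions with the smallest p lay at the ends of Relb (0.45), Map3k14 (0.44), Malt1 (0.36), Bcl10 (0.36), Grb2 (0.43), Nfkb1 (0.45), Rel (0.31) and Pik3r1 (0.32). Relb, Nfkb1 and Rel encode NF-kB subunits, Map3k14, Malt1 and Bcl10 encode proteins upstream of them, Grb2 an adaptor and Pik3r1 a subunit of phosphoinositide 3-kinase. With trended offsets these log2 fold changes were 0.02 to 0.32, and none of the 8 passed (edgeR adjusted p 0.0568 to 0.896). These 8 regions averaged 61.0 to 413 CPM, where the 3 gene-end regions of the receptor genes averaged 16.1 to 37.7 CPM.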

How the data were processed

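The authors deposited a matrix of raw read counts for 24605 regions in 6 libraries and, for each library, a peak list with a score per peak. Scores were used only to split each list at its median. Per the submitters' processing notes, the build was mm10 and the tools included MACS2 2.2.8, Bowtie2 2.5.1, edgeR 3.40.2, Trim Galore 0.6.10 and Picard 2.23.8. How regions were built and counted, and whether reads were shifted to the Tn5 cut, is not given in the sources used here; such a shift moves cuts by a few bases and would touch mainly narrow regions. All matrix regions overlapped a peak in 2 or more lists.

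Differential accessibility was tested on the whole matrix with the edgeR 4.0.16 quasi-likelihood F-test (R 4.3.3), with TMM factors (0.953 to 1.05), the filterByExpr filter, which kept 24316 regions and all 30 members, and Benjamini-Hochberg adjustment at 0.05. The standard error of a log2 fold change is its size divided by the root of F, and intervals use the moderated degrees of freedom. The procedure was also run on simulated counts. These had a common dispersion and no shift of fold change with region strength, so they do not bear on calls that depend on that shift. Gene spans came from the 21896 protein-coding entries of RefSeq on GRCm38.p6, which is mm10. Coordinates are as the matrix gives them. Alternatives were other library sizes (total counts, upper-quartile factors, DESeq2 size factors), trended offsets (loess, span 0.3, pseudocount 0.5 reads), other filters (none, or 20 reads in 3 libraries), a threshold of 0.1, limma-voom (limma 3.58.1), the Wald test of DESeq2 1.42.0, a replicate block, regions in all 6 peak lists, narrower assignment, and each library left out. An overlap with a peak is at least 1 bp.

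Values per library are given for called members, the strongest gene-end region and the strongest region of each gene, and the uncalled member with the smallest p; others that are named were chosen after their values were seen. Of the list of pathway genes, the 8 called regions with the smallest p in each direction are named, apart from items not reported here. The members, lists and tests were chosen with earlier results of these data known.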

Additional observations from a re-analysis of the deposited data

How the results depend on the processing

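The 4 lower members became 2 with trended offsets or in the DESeq2 Wald test, and 1 among regions in all 6 peak lists (fewer regions entered). They became 1 of 26 regions with assignment within 20 kb and 0 of 14 with only regions that overlap a member gene (fewer regions entered). Leaving out single libraries gave 2 to 4 lower, the 2 without control 3 or without palmitate 3, and 0 to 1 higher, the 1 without control 2. With the other settings the count was 3 to 5 lower and 0 higher. Under these alternatives, other than trended offsets and the Wald test, 7.68% to 17.8% of all tested regions were lower. Of the 30 regions, 15 had a peak in all 6 lists, 12 where the peaks had to cover at least 0.5 of the region, and 5 with peaks above the median score of their list.

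Signs turned at members that had not passed: Cd28 gene end -0.07 with total counts, -0.01 with upper-quartile factors, -0.04 among regions in all 6 lists, and -0.11 to 0.24 with single libraries left out; the Tnfrsf1b start -0.02 with total counts and -0.03 to 0.18 with libraries left out; and, with libraries left out, -0.16 to 0.01 at the strongest Tnfrsf1b region and -0.01 to 0.34 at the Cd27 start. The Icos region at 9.49 kb from the gene end ran from -0.02 to 0.60 with libraries left out. The summed log2 ratio at Tnfrsf4 was -0.44 with trended offsets. The causes were not tested.

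Same-numbered libraries did not deviate together (correlations 0.000449, -0.104 and -0.027). At the read counts of these regions such correlations cannot exclude that the numbers pair the libraries. With a replicate block 4 members were lower and 0 higher. Depth limits the weakest members, with 7 to 35 reads per library at the region 22.6 kb beyond Icos; at least 20 reads in 3 libraries removed it and 2 others.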
